A study of Homo sapiens with 2 samples.

Results

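The 48 genes described here encode the ligands, receptors, SMADs, intracellular regulators, antagonists, latency proteins and immediate targets of TGF-beta and BMP signaling. They were taken by symbol from the 58884 genes of the count table, and 48 of 48 were found and held at least 20 counts over both libraries, as did 18078 genes in all. RNA was sequenced from SAS cells, a cell line of a tongue squamous cell carcinoma, with 1 library per condition. The LKO cells, listed as wild type, were transduced with the empty lentiviral vector pLKO.1, and the shKDM4C cells with a lentiviral hairpin against KDM4C, a histone demethylase acting on methylated lysines of histone H3. Both were selected with puromycin and grown in the same medium, and which of the study's hairpins the sequenced shKDM4C cells carried is not given in the sources used here.

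The libraries held 57626616 counts (LKO) and 50627096 counts (shKDM4C). KDM4C itself went from 1047 counts in LKO to 242 in shKDM4C, 27.8% of the LKO level after scaling. All 10 squamous epithelial markers examined reached 20 counts, with a summed level of 1908 CPM (counts scaled to a common library size by the TMM method) in LKO and 1636 in shKDM4C. Single markers in this sum differed in both directions, for example CDH1 (301 CPM in LKO and 148 in shKDM4C) and KRT6A (6.12 and 12.6 CPM). Markers of other cell types were sparse: 3 of 8 fibroblast markers reached 20 counts (summed 4.85 CPM in LKO and 6.17 in shKDM4C), 3 of 5 endothelial markers (1.35 and 3.78 CPM) and 1 of 5 leukocyte markers (0.271 and 0.508 CPM), with CD3E at 0 counts in both libraries. The hairpin targets in KDM4C, on chromosome 9, are shown because the guide strand of a hairpin can also act on other transcripts through the stretch in capitals, which pairs with its positions 2 to 8.
shKDM4C#1: atacttggattacGAAGATTt
shKDM4C#2: gctatgagaagccCGAGAAAt

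Ligands of this superfamily are secreted dimers that bring together type I and type II receptor kinases. TGF-beta and activin receptors phosphorylate SMAD2 and SMAD3, BMP receptors phosphorylate SMAD1, SMAD5 and SMAD9, and both sets enter the nucleus with the shared partner SMAD4. The pathway is restrained outside the cell by proteins that trap ligands and inside it by inhibitory SMADs, ubiquitin ligases and corepressors, and in squamous epithelium TGF-beta is known both for halting proliferation and for inducing matrix and invasion genes.

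Transcripts of both activin subunits, of BMP2 and BMP4 and of 4 of 6 antagonists were higher in the shKDM4C library, while 22 of the 24 receptor, SMAD, ubiquitin ligase and corepressor genes were not called. Of the 48 genes, 9 were called higher, namely INHBA, INHBB, BMP2, BMP4, BAMBI, FST, FSTL3, NOG and ID2. Another 3 were called lower, ACVR2B, SMAD1 and BMP1, and 36 were neither. A gene was called when its scaled level differed by at least 1.5-fold and the exact 95% counting interval of the log2 ratio of shKDM4C over LKO excluded 0. Over all 18078 tested genes, 13.0% were called higher and 15.7% lower, against 18.8% and 6.25% of the 48 genes. The median log2 ratio of the 48 genes was 0.08, beside -0.01 for all tested genes, and 31 lay above 0 and 17 below. Scaled by total counts in place of TMM, 9 were higher and 5 lower, SMAD9 and LTBP2 being added to those called lower. Over all 18078 tested genes, that scaling gave 2036 higher and 3347 lower. With 1 library per condition there is no test between conditions and no replicate check of any difference, and the intervals cover counting error only. In bulk RNA, more transcript per cell and more cells with the transcript cannot be told apart.

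**Figure D1:**
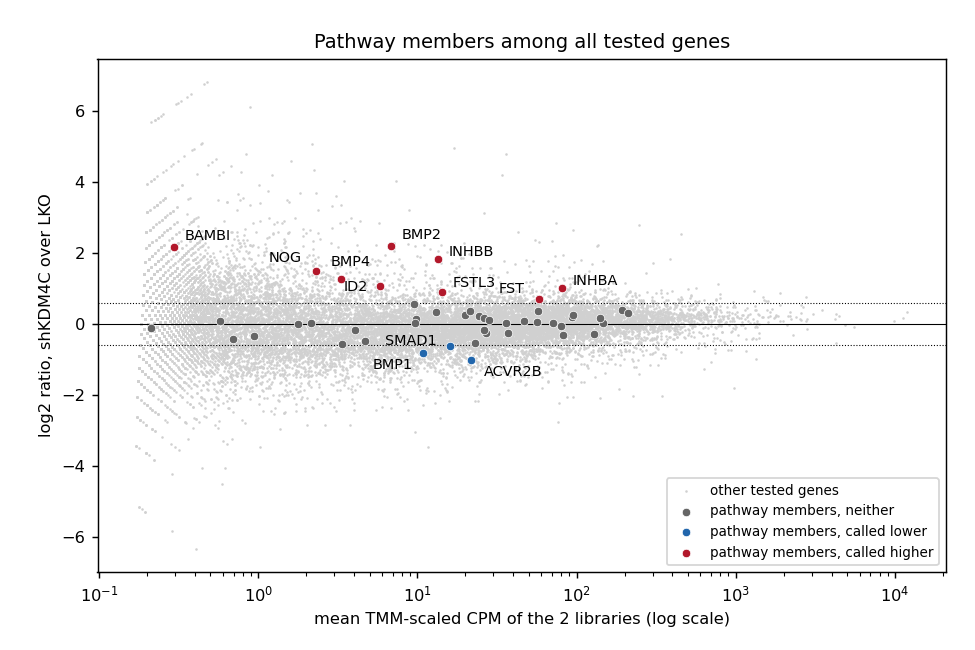
Log2 ratio of shKDM4C over LKO (vertical axis) against the mean TMM-scaled CPM of both libraries (horizontal axis, log scale) for each of 18078 tested genes, with the 48 pathway genes as large points coloured by call and dotted lines at a 1.5-fold difference. The 9 genes called higher reach from scarce (BAMBI, 0.101 CPM in LKO and 0.487 in shKDM4C) to well expressed (INHBA, 53.3 and 108 CPM), and lie above a band of 36 uncalled pathway genes around 0.

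The calls fell unevenly over the roles, beside 13.0% higher and 15.7% lower over all tested genes. Among the 9 ligand genes 4 were higher and none lower (median log2 ratio 0.21), and among the 6 antagonist genes likewise 4 and none (median 0.81). The 10 receptor genes held 1 lower and 0 higher call (median 0.18), and so did the 8 SMAD genes (median -0.13) and the 5 genes of latency and processing (median -0.15). None of the 6 ubiquitin ligase and corepressor genes was called, and 1 of 4 ID genes was higher. Outside the ligands and antagonists, 0 or 1 call in a group this small lies near the shares over all tested genes. The members closest to the limit without a call were SMAD9 at -0.55, ACVR2A at 0.55 and LTBP2 at -0.54, and those just past it were SMAD1 at -0.63 and FST at 0.71.

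**Figure D2:**
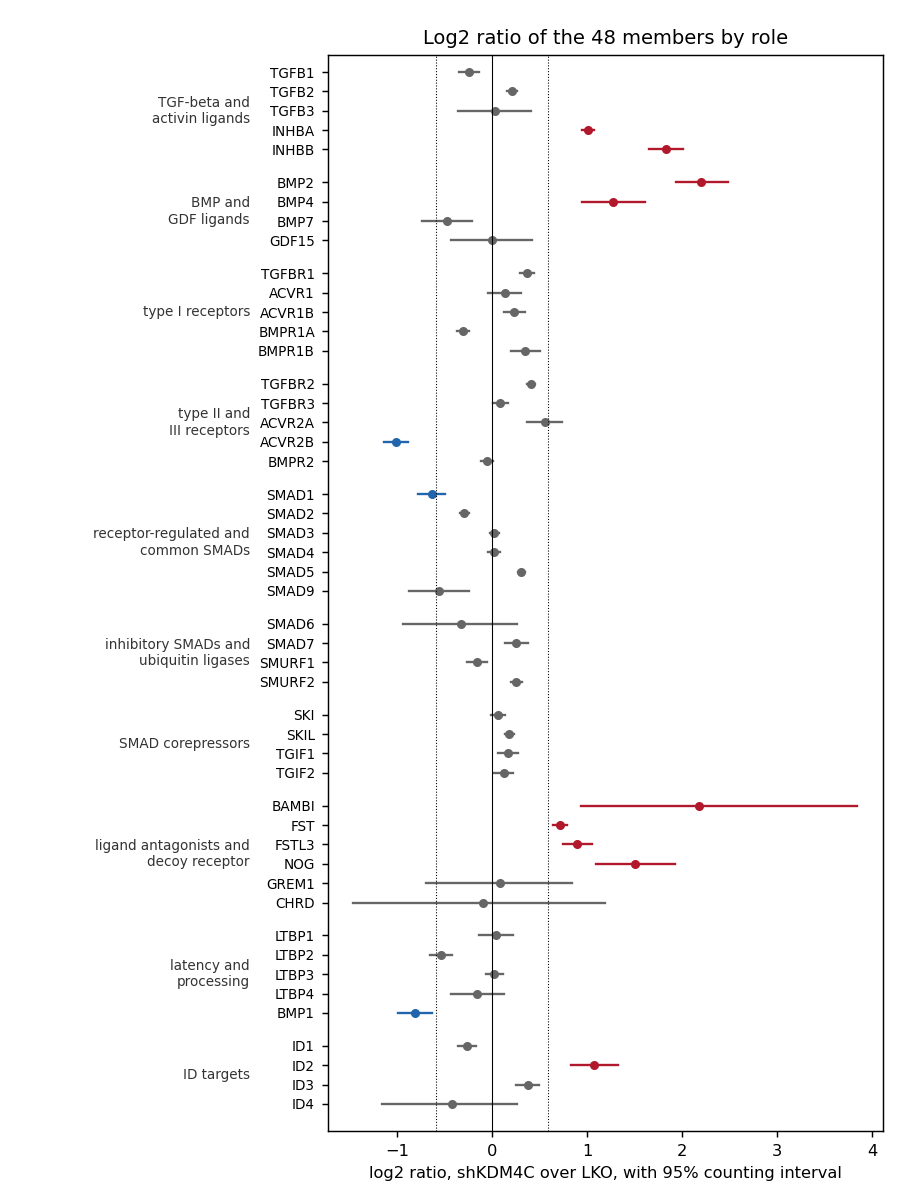
Log2 ratio of shKDM4C over LKO (horizontal axis) for each of the 48 genes, grouped by role, with the exact 95% counting interval as a bar, dotted lines at a 1.5-fold difference, and calls in red (higher) and blue (lower). The 8 red points among ligands and antagonists, from FST at 0.71 to BMP2 at 2.20, stand apart from the receptors, SMADs and corepressors, whose only called points are ACVR2B at -1.01 and SMAD1 at -0.63.

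Among the ligands, both activin subunit genes and both BMP2 and BMP4 were higher, and none of the 3 TGF-beta genes was called. INHBA encodes the activin A subunit and lies on chromosome 7 of GRCh38 from 41667168 to 41705834. It had 3153 counts in LKO and 5300 in shKDM4C, or 53.3 and 108 CPM, a log2 ratio of 1.01 (interval 0.95 to 1.08). INHBB, which encodes the activin B subunit and lies on chromosome 2 from 120346136 to 120351803, had 350 and 1036 counts, or 5.92 and 21.0 CPM, and a log2 ratio of 1.83 (interval 1.65 to 2.01). The INHBB interval lay above that of INHBA, so the rarer subunit transcript showed the larger ratio in these libraries. INHBA shares 248 exonic bases with INHBA-AS1 on the opposite strand, which had 32 counts in LKO and 68 in shKDM4C.

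BMP2 had the highest ratio of the 48 genes. Its counts went from 143 in LKO to 550 in shKDM4C (2.42 and 11.2 CPM), a log2 ratio of 2.20 (interval 1.94 to 2.48). BMP4, a close relative of BMP2 that signals through the same receptors, had 115 and 232 counts (1.94 and 4.71 CPM) and a log2 ratio of 1.27 (interval 0.95 to 1.61). BMP2 lies on chromosome 20 from 6767686 to 6780246 and BMP4 on chromosome 14 from 53949736 to 53958761, and the exons of BMP4 overlap by 506 bases those of an unnamed gene on the other strand that is not among the counted genes. BMP7, the third BMP ligand listed, went the other way without a call, with 321 and 193 counts and a log2 ratio of -0.47 (interval -0.74 to -0.21). Higher calls among the 3 BMP ligands were thus those of BMP2 and BMP4.

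The TGF-beta genes stayed within 1.5-fold. TGFB1, which encodes the most studied isoform, had 1728 counts in LKO and 1215 in shKDM4C, or 29.2 and 24.7 CPM, a log2 ratio of -0.24 (interval -0.35 to -0.14). It shares 215 exonic bases with HNRNPUL1 on the other strand, which had 18230 and 15824 counts. TGFB2 had 5135 and 4949 counts and a log2 ratio of 0.21 (interval 0.15 to 0.27), and TGFB3 had 125 and 106 counts and a ratio of 0.03 (interval -0.36 to 0.41). The stress cytokine gene GDF15, with 106 and 88 counts, had a ratio of -0.0032 (interval -0.43 to 0.42), a range too wide to show or exclude a modest difference.

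The order of the ligands by level shifted with these differences. Per kilobase of the Ensembl canonical transcript, the LKO level was 14.8 CPM per kb for TGFB2, 10.5 for TGFB1, 8.82 for INHBA and 1.85 for INHBB, with the other ligands lower. In shKDM4C the level of INHBA reached 17.8 CPM per kb, beside 17.1 for TGFB2, 8.87 for TGFB1, 6.56 for INHBB, 3.15 for BMP2 and 2.44 for BMP4. INHBA and TGFB2 cannot be ordered firmly: divided by the length of all exons of each gene joined, the shKDM4C level was 16.6 CPM per kb for TGFB2 and 13.0 for INHBA. Summed per canonical kb, INHBA and INHBB had a level of 10.7 in LKO and 24.4 in shKDM4C (2.29-fold), and BMP2 and BMP4 1.69 and 5.59 (3.31-fold). The sum of TGFB1, TGFB2 and TGFB3 was 25.9 and 26.6 CPM per kb (1.03-fold), so by this measure the summed activin subunit level went from below that of the TGF-beta genes to near it. By joined exon length the subunit sum in shKDM4C stayed further below, at 19.55 CPM per kb beside 24.58 for the TGF-beta genes.

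**Figure D3:**
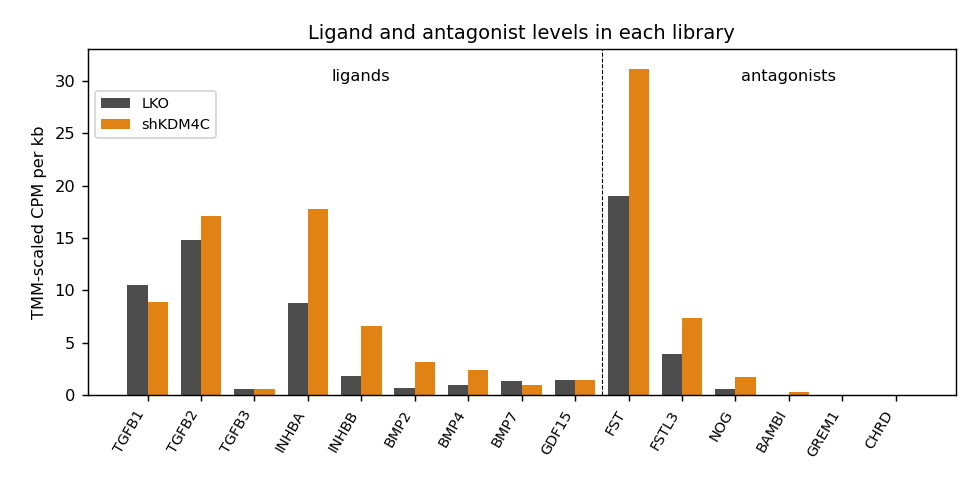
Level of each ligand and antagonist gene in TMM-scaled CPM per kilobase of the canonical transcript (vertical axis, from 0), 1 bar per library, with LKO in grey and shKDM4C in orange. INHBA goes from 8.82 to 17.8 and FST from 19.0 to 31.2, whereas TGFB2 goes only from 14.8 to 17.1 and TGFB1 from 10.5 to 8.87.

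Of the 6 antagonist genes, FST, FSTL3, NOG and BAMBI were higher, and GREM1 and CHRD were not called. FST encodes follistatin, which wraps around activins and blocks their receptor contacts, and lies on chromosome 5 from 53480626 to 53487134. It had 2582 counts in LKO and 3528 in shKDM4C (43.7 and 71.6 CPM), a log2 ratio of 0.71 (interval 0.64 to 0.79). FSTL3, which encodes a related activin-binding protein and lies on chromosome 19 from 676392 to 683392, had 587 and 911 counts (9.92 and 18.5 CPM) and a log2 ratio of 0.90 (interval 0.75 to 1.05). Both follistatin genes thus moved with both activin subunit genes, and their summed level of 23.0 CPM per kb in LKO and 38.6 in shKDM4C (1.68-fold) was above that of the subunits in each library.

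NOG encodes noggin, which traps BMPs. It lies on chromosome 17 from 56593699 to 56595611 and had 71 counts in LKO and 168 in shKDM4C (1.20 and 3.41 CPM), a log2 ratio of 1.5 (interval 1.10 to 1.93). BAMBI, a receptor-like protein without a kinase that dampens TGF-beta and BMP signaling, had 6 and 24 counts (0.101 and 0.487 CPM). Its log2 ratio of 2.18 had an interval from 0.94 to 3.84, the widest of the called genes, so its size is poorly fixed at this depth. The BMP antagonist genes GREM1 (33 and 29 counts) and CHRD (13 and 10 counts) were near the limit of detection and had log2 ratios of 0.08 (interval -0.69 to 0.84) and -0.10 (interval -1.46 to 1.19).

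The start regions of the activin subunit and follistatin genes are shown because these 4 genes moved together and their products bind each other. Each runs from 250 bases before to 50 bases after the RefSeq start in GRCh38.p14, and 43 of the 48 genes had such an entry. Capitals mark matches to letters searched on both strands: TGANTCA (AP-1), TGACGTCA (CRE), GTCTAGAC, CAGACA and GGCGCC (SMAD-type elements) and TATAAA. INHBA lies at chr7:41703041-41703340 on the minus strand, INHBB at chr2:120345886-120346185, FST at chr5:53480379-53480678 and FSTL3 at chr19:676142-676441, the last 3 on the plus strand. For INHBA the RefSeq start lies inside the gene as GENCODE bounds it.
INHBA: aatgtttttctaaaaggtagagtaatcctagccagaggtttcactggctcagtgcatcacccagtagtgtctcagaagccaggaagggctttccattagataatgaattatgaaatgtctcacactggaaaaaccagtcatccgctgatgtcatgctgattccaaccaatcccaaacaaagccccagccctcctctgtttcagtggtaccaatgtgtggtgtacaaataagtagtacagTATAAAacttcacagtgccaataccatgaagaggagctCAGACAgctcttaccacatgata
INHBB: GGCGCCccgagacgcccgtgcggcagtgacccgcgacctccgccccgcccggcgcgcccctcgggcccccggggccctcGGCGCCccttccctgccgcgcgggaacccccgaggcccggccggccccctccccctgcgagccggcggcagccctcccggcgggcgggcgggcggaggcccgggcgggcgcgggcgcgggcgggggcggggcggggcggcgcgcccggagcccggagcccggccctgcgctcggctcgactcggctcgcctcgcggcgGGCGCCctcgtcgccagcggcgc
FST: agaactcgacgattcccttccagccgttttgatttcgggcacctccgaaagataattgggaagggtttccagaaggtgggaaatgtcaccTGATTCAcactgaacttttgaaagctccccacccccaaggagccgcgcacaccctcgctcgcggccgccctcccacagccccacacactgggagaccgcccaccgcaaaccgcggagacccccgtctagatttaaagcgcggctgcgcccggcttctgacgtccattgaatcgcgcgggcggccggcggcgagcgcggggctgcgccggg
FSTL3: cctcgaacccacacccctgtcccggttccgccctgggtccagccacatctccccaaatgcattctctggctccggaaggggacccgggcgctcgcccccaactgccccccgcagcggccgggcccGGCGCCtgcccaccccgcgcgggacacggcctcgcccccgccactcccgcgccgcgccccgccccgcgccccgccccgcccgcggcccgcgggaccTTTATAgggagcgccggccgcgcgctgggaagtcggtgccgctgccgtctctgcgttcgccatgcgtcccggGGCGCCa

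The 4 start regions had little in common. Their GC content was 43.3% for INHBA, 88.7% for INHBB, 63.7% for FST and 78.7% for FSTL3, with 1, 58, 32 and 44 CpG pairs. INHBA held TATAAA at -11 and CAGACA at 28, counted from the first transcribed base as 1. INHBB held GGCGCC at -250, -171 and 28, FSTL3 held it at -125 and 44 and TTTATA, the reverse complement of TATAAA, at -29, and FST held the AP-1 match TGATTCA at -160. None of the motifs occurred in all 4. Of all 35116 start regions searched, 7.71% held TGANTCA, 16.9% CAGACA, 19.2% GGCGCC and 11.5% TATAAA. Of the 43 pathway genes with an entry, 6, 14, 19 and 11 did, in at least 1 of their listed starts. These counts are by gene, some with several starts, and the shares are by start region, so they cannot be compared directly. A match is a run of letters and not a shown binding site.

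The receptor genes were called in 1 of 10 cases. ACVR2B, a type II receptor for activins that lies on chromosome 3 from 38453890 to 38493142, had 1712 counts in LKO and 709 in shKDM4C, or 29.0 and 14.4 CPM. Its log2 ratio was -1.01 (interval -1.14 to -0.88), which left 49.8% of the LKO level. ACVR2A, the other type II activin receptor gene, had 458 and 560 counts (7.74 and 11.4 CPM) and a log2 ratio of 0.55 (interval 0.37 to 0.74), short of a call, and shares 431 exonic bases with ORC4 on the other strand (3684 and 3964 counts). The pair changed places: ACVR2A made up 37.7% of their summed level per kb in LKO and 64.1% in shKDM4C, and the sum itself was 3.94 and 3.40 CPM per kb.

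The 3′ UTR of ACVR2B also held the word GAAGATT of shKDM4C#1 and the word CGAGAAA of shKDM4C#2, 1 match each. Among 13222 tested genes with an annotated 3′ UTR, 13.3% held the first word and 2.67% the second. Neither word occurred in the 3′ UTRs of SMAD1, BMP1 or the 9 genes called higher, and of the 36 pathway genes without a call 7 held the first and 2 the second. SMAD2, without a call, held both words, with 5 and 2 matches. The shares do not allow for length, and the canonical transcripts of ACVR2B and SMAD2 have 11782 and 34626 bases. A direct action of the hairpin on ACVR2B was not tested.

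Receptors for TGF-beta itself were present at high levels in both libraries. TGFBR2, the type II receptor that binds TGF-beta first, had 9800 counts in LKO and 10849 in shKDM4C (166 and 220 CPM), a log2 ratio of 0.41 (interval 0.37 to 0.45). TGFBR1, its kinase partner, had 2943 and 3169 counts (49.8 and 64.3 CPM) and a ratio of 0.37 (interval 0.30 to 0.44). Both lay above 0 by more than counting error and below 1.5-fold. Per kilobase TGFBR2 had the highest level of the 10 receptor genes, 36.6 CPM per kb in LKO and 48.6 in shKDM4C, and the BMP receptor gene BMPR1A the next, 14.1 and 11.4. By joined exon length TGFBR1, at 8.05 CPM per kb in shKDM4C, came before BMPR1A at 7.28. The remaining receptors, the coreceptor gene TGFBR3 among them, had log2 ratios from -0.30 for BMPR1A (5352 and 3613 counts) to 0.35 for BMPR1B (676 and 717 counts), with the type II receptor gene BMPR2 at -0.05 and the type I receptor genes ACVR1 at 0.13 and ACVR1B at 0.23.

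Transcripts of the SMADs that carry the TGF-beta and activin signal were close to level. SMAD3 had 8614 counts in LKO and 7301 in shKDM4C (146 and 148 CPM), a log2 ratio of 0.03 (interval -0.02 to 0.07). SMAD4 had 4198 and 3549 counts (71.0 and 72.1 CPM) and a ratio of 0.02 (interval -0.04 to 0.09). For these 2 genes the intervals hold 0 and exclude a difference of 1.5-fold by counting error. SMAD2 had 8383 and 5707 counts (142 and 116 CPM) and a ratio of -0.29 (interval -0.34 to -0.24), below 0 without a call.

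The SMADs of the BMP branch differed among themselves. SMAD1, on chromosome 4 from 145481194 to 145559176, fell from 1148 counts in LKO to 617 in shKDM4C (19.4 and 12.5 CPM), a log2 ratio of -0.63 (interval -0.78 to -0.49). SMAD5, which acts in parallel with SMAD1, had 11190 and 11552 counts (189 and 235 CPM) and a ratio of 0.31 (interval 0.27 to 0.35), and SMAD9 had 235 and 133 counts and a ratio of -0.55 (interval -0.88 to -0.24). SMAD5 was the most abundant of the 3 in both libraries, and SMAD1 made up 18.9% of their summed level per canonical kb in LKO and 11.0% in shKDM4C. By joined exon length these shares were 11.2% and 6.27%. The sum was 34.2 and 38.1 CPM per canonical kb. The SMAD1 call was lost where a 2-fold difference was required.

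Inside the cell, none of the feedback inhibitors was called. The inhibitory SMAD genes SMAD7 (1075 and 1069 counts) and SMAD6 (62 and 41 counts) had log2 ratios of 0.26 (interval 0.13 to 0.38) and -0.33 (interval -0.94 to 0.26). SMURF1 and SMURF2, ubiquitin ligases that remove receptors and SMADs, had -0.16 and 0.26. The corepressor genes SKI, SKIL, TGIF1 and TGIF2, whose products hold SMAD complexes inactive on DNA, lay between 0.07 and 0.18. SKIL and SMAD7 are themselves known as rapid transcriptional targets of TGF-beta, and both stayed within 1.5-fold.

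**Figure D4:**
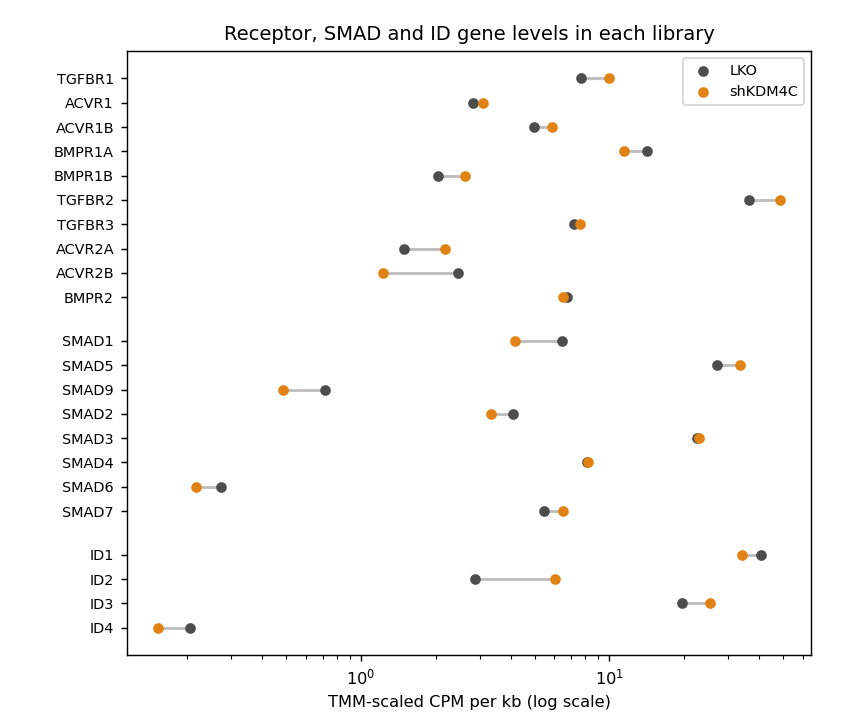
Level of each receptor, SMAD and ID gene in TMM-scaled CPM per kilobase of the canonical transcript (horizontal axis, log scale), with LKO in grey and shKDM4C in orange joined by a line. The longest lines are those of ACVR2B (2.46 to 1.22), SMAD1 (6.47 to 4.17) and ID2 (2.86 to 6.03). Those of SMAD9 and ACVR2A, which were not called, are nearly as long as that of SMAD1, while SMAD3, SMAD4 and BMPR2 show nearly coincident points.

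Latent TGF-beta is stored in the matrix bound to some, but not all, proteins of the LTBP family, and no LTBP gene was called. LTBP2 came closest, with 1617 counts in LKO and 928 in shKDM4C and a log2 ratio of -0.54 (interval -0.66 to -0.42), and LTBP1, LTBP3 and LTBP4 had 0.04, 0.02 and -0.15. BMP1, which despite its name encodes a procollagen C-proteinase that also cleaves LTBP1 and chordin, fell from 818 to 389 counts (13.8 and 7.90 CPM), a log2 ratio of -0.81 (interval -0.99 to -0.63). BMP1 shares 461 exonic bases with an unnamed gene on its own strand (16 and 10 counts). Its lower transcript stood apart from the higher BMP2 and BMP4, to which it is related in name only.

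The ID genes, immediate targets of BMP signaling that encode inhibitors of basic helix-loop-helix factors, did not move as a group. ID2, on chromosome 2 from 8678845 to 8684461, rose from 220 counts in LKO to 386 in shKDM4C (3.72 and 7.84 CPM), a log2 ratio of 1.07 (interval 0.83 to 1.32). ID1, with 2379 and 1653 counts (40.2 and 33.6 CPM), had -0.26 (interval -0.35 to -0.17), and ID3, with 1102 and 1192 counts (18.6 and 24.2 CPM), had 0.38 (interval 0.26 to 0.50). ID4 was scarce (47 and 29 counts) and had -0.42 (interval -1.15 to 0.27). ID1 and ID3 made up most of the ID transcript, and the sum of the 4 was 63.6 CPM per kb in LKO and 65.8 in shKDM4C, with ID1 lower in level and ID2 and ID3 higher.

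Known target genes of TGF-beta were examined next, from a list of 30. The list was chosen with earlier results of these data known, so its share of calls is not an independent check. Of the 29 tested, 14 (48.3%) were higher and 3 (10.3%) lower in shKDM4C, beside 13.0% and 15.7% of all tested genes, and the median log2 ratio was 0.53. By the interval bound nearest to 0, the 4 strongest higher calls were ANGPTL4, IL11, CCN2 and SNAI1. ANGPTL4, which encodes a secreted inhibitor of lipoprotein lipase, had 15 counts in LKO and 168 in shKDM4C, a log2 ratio of 3.71 (interval 2.99 to 4.62). CCN2, a matricellular protein gene also driven by YAP, had 1048 and 4498 counts and a log2 ratio of 2.37 (interval 2.27 to 2.46). SNAI1, a repressor of E-cadherin, had 34 and 159 counts and a ratio of 2.47 (interval 1.95 to 3.07), and the cytokine gene IL11 had 315 and 2327 counts and a ratio of 3.15 (interval 2.98 to 3.32).

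The targets did not move one way. FN1, the fibronectin gene, had a log2 ratio of -0.98 (interval -0.998 to -0.966), TGFBI, which encodes a matrix adhesion protein, fell from 54364 to 27608 counts (-0.71, interval -0.73 to -0.69), and ACTA2, smooth muscle actin, from 358 to 152 counts (-0.97, interval -1.26 to -0.69). ACTA2 shares 387 exonic bases with FAS on the other strand, whose counts were 1513 and 1829. Other targets were higher, among them KLF10, an early TGF-beta response factor, at 1.40 (3662 and 8063 counts). PMEPA1, a feedback inhibitor that is also a direct target, had 1980 and 1953 counts and a ratio of 0.24 (interval 0.15 to 0.34), without a call. Where a 2-fold difference was required, 8 targets were higher and 0 lower, beside 1404 and 1348 of the 18078 tested genes. With total counts, or with genes of at least 1 count kept, 11 of 29 targets were higher and 3 lower. Over all tested genes these settings gave 2036 higher and 3347 lower of 18078, and 3247 higher and 3415 lower of 32050. With at least 200 counts required, 11 of 25 targets were higher and 3 lower, beside 1053 and 1664 of 11656 genes. COL1A1, a fibroblast marker as well as a target, had 97 and 123 counts, and the part of other inputs to these genes was not tested.

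**Figure D5:**
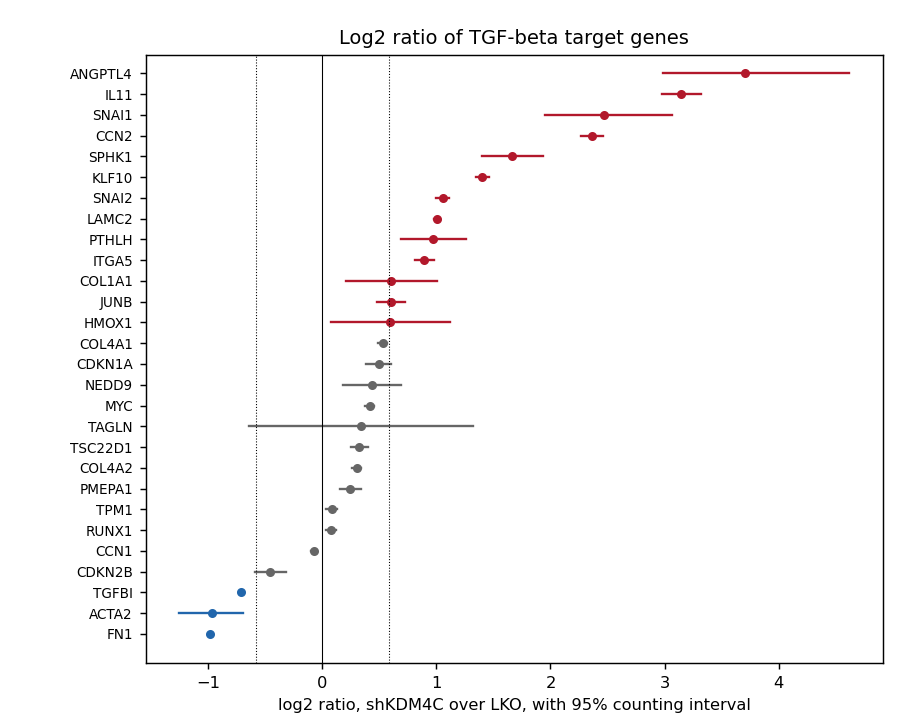
Log2 ratio of shKDM4C over LKO (horizontal axis) for the tested TGF-beta target genes, 1 left out, ordered by ratio, with the exact 95% counting interval as a bar and dotted lines at a 1.5-fold difference. The red genes reach from HMOX1 at 0.59 to ANGPTL4 at 3.71, and the 3 blue genes TGFBI, ACTA2 and FN1 lie from -0.71 to -0.98.

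Of 14 BMP targets outside the 48 genes, 10 were tested, 2 (20%) were higher and 2 (20%) lower, beside 13.0% and 15.7% of all tested genes, and their median ratio was 0.18 on the log2 scale. RUNX2, the osteoblast transcription factor, fell from 2347 counts in LKO to 769 in shKDM4C (39.7 and 15.6 CPM), a ratio of -1.35 (interval -1.47 to -1.23), and ATOH8, with 42 and 14 counts, had -1.29 (interval -2.31 to -0.42). The homeobox gene DLX2 (67 and 121 counts) and the repressor gene HEY1 (38 and 64 counts) had 1.11 (interval 0.67 to 1.57) and 1.01 (interval 0.41 to 1.63).

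Further antagonists, and genes that activate latent TGF-beta, were examined outside the 48. Of 12 tested, 3 (25%) were lower and 1 (8.33%) higher, beside 15.7% and 13.0% of all tested genes, and the median log2 ratio was -0.11. ITGB8 and ITGB6 encode the integrin beta subunits that release TGF-beta from its latent complex, and ITGB8 fell from 7978 counts in LKO to 2486 in shKDM4C, a log2 ratio of -1.42 (interval -1.48 to -1.35). ITGB6 had 197 and 100 counts and a ratio of -0.71 (interval -1.08 to -0.36), while ITGAV, which encodes the alpha subunit shared by both, had 7922 and 6813 counts and 0.05 (interval -0.0006 to 0.09). The proprotein convertase gene PCSK6 was lower at -0.62, and BMPER, which encodes a BMP-binding protein, was higher at 0.61. Both beta subunits of the activating integrins were therefore lower without a lower alpha subunit.

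The 31 intracellular regulators of SMADs, all tested, had 2 calls (6.45%) in each direction, beside 15.7% lower and 13.0% higher over all tested genes, and a median log2 ratio of -0.0054. NEDD4L, a ubiquitin ligase for activated SMAD2 and SMAD3, rose from 19895 to 33032 counts (336 and 671 CPM), a ratio of 1.00 (interval 0.97 to 1.02). TAB1, an activator of the TAK1 kinase, fell from 1744 to 656 counts, a ratio of -1.15 (interval -1.28 to -1.02), and CTDSPL, a phosphatase gene of the family that dephosphorylates SMADs, from 7696 to 3992 counts, a ratio of -0.68 (interval -0.74 to -0.63). LDLRAD4, with 6 and 17 counts, was called higher at 1.69 (interval 0.36 to 3.40) on few counts. MAP3K7, which encodes TAK1 itself, had 4129 and 2903 counts and a ratio of -0.24 (interval -0.31 to -0.18).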

How the data were processed

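Poly(A) RNA libraries of LKO and shKDM4C SAS cells, 1 per condition, were made with a kit that marks strand. According to the submitters' processing notes, Trimmomatic, HISAT2 (build GRCh38) and featureCounts were among the tools run, with CASAVA, FastQC, MultiQC and DESeq2, and DEGseq appears in the methods. Tool versions, the annotation and the strand setting of the counting were not given in the sources used here. Overlapping and antisense genes therefore have less certain values. The authors deposited raw read counts for 58884 gene IDs, which were used as deposited, and their own comparison (scaled values, fold changes and p-values), which was not used, 2 columns of per-sample values included.

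Symbols, positions, exons and 3′ UTRs came from GENCODE v44, in which 58472 IDs were found (CRIPTO under an older symbol that RefSeq lists), and start regions from RefSeq. Effective library sizes (TMM) were computed with edgeR 4.0.16 in R 4.3.3 from 18078 genes, those whose counts in both libraries together reached 20, which hold 99.9% of the counts of each. The factors were 1.03 for LKO and 0.974 for shKDM4C. CPM values are counts scaled to these sizes. A prior count of 0.5 was added for the log2 ratio. Intervals at 95% are exact (Clopper-Pearson, conditional on the sum of both counts) and cover counting error only. PCR copies are not independent molecules, and the spread between cultures was not measured. Alternatives were DESeq2 1.42.0 size factors, total counts, minimums of 1 and 200 counts, a prior count of 5, a 2-fold limit and a 99% interval. Levels per kb by joined exon length were added after seeing the data. No p-value was computed, and no replicate could be left out. The calls were also run on simulated Poisson counts with 200 genes changed by known folds. Those counts hold counting error only, as the intervals assume, so they cannot show how the calls hold up against spread between cultures or PCR copies. Calculations used Python 3.11.15, numpy 2.4.6, pandas 2.3.3, scipy 1.17.1 and matplotlib 3.10.9.

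The 48 genes and 6 further lists were chosen with earlier results of these data known. Every called gene of the 48 is named with its values, as are TGFB1, TGFBR1, TGFBR2, SMAD2, SMAD3 and SMAD4, the others by ranges or single values, and of each further list up to 4 called genes in each direction, ranked by the interval bound nearest to 0, with members its description turns on. KLF10, PMEPA1, COL1A1, ITGAV, MAP3K7, GDF11, INHA, NODAL, MSTN and ACVRL1 were named after their values were seen. Values of some genes of the further lists are not reported here, though their calls count in the totals.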

Additional observations from a re-analysis of the deposited data

How the results depend on the processing

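No called gene among the 48 changed direction under any of the alternatives run. Of the genes named in calls, SMAD1, FST, FSTL3 and BMP1 lost theirs where a 2-fold difference was required, which left 1 gene lower. Of the 18078 tested genes, 1348 were lower at that limit. Total counts in place of TMM gave 5 lower, SMAD9 and LTBP2 being the added genes, and moved the median of all tested genes to -0.09. With that scaling, 3347 of the 18078 tested genes were lower. With genes of at least 1 count kept, SMAD9 was also called lower, beside 3415 of all 32050 genes kept.

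The further lists were less steady, since their calls rest on few genes. At 2-fold, 8 TGF-beta targets were higher and 0 lower, 1 SMAD regulator was higher and 1 lower, and 1 of the other antagonists and activators was lower and 0 higher. Over all 18078 tested genes, 1404 were higher and 1348 lower at 2-fold. With at least 200 counts required, BMP targets had 1 lower and 1 higher, other ligands 0 and 0, other receptors 0 higher and SMAD regulators 1 higher. At that minimum, 1053 of 11656 genes were higher and 1664 lower. With a 99% interval 1 other ligand was lower and 1 SMAD regulator higher. That interval left 2018 of the 18078 tested genes higher and 2517 lower. The median of the SMAD regulators, close to 0, turned to 0.0056 with DESeq2 size factors and 0.0141 with at least 200 counts, and was -0.0826 with total counts. The other antagonists had 0 higher with total counts, and 0 higher and a median of -0.24 with genes of at least 1 count kept. Over all genes, 2036 of 18078 were higher with total counts and 3247 of 32050 with at least 1 count. No paired analysis was possible because each condition has 1 library. Depth limits BAMBI, CHRD, GREM1, SMAD6 and ID4 most.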

Other observations

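Most other ligands of the superfamily were scarce in SAS cells. Of 24 ligand genes outside the 48, only 8 reached 20 counts over both libraries, and 16 did not, among them NODAL (1 count in each library) and MSTN (0 in both). GDF11, a relative of myostatin, was the most counted, with 1118 counts in LKO and 1042 in shKDM4C and a log2 ratio of 0.16 (interval 0.04 to 0.29). On few counts, BMP8A (37 and 70 counts, 1.17, interval 0.59 to 1.80) and BMP6 (23 and 44 counts, 1.19, interval 0.44 to 1.99) were called higher. AMH (20 and 4 counts, -1.92, interval -4.07 to -0.48) and INHBE (36 and 14 counts, -1.07, interval -2.10 to -0.17) were called lower. Of the 8 tested, 25% were thus higher and 25% lower, beside 13.0% and 15.7% of all tested genes. INHA, whose product pairs with activin subunits to form inhibins, had 10 counts in each library.

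Of 10 other receptors and coreceptors, 5 were tested with 1 (20%) higher and 0 lower, beside 13.0% and 15.7% of all tested genes. ENG, endoglin, an endothelial TGF-beta coreceptor, had 18 counts in LKO and 47 in shKDM4C, a log2 ratio of 1.62 (interval 0.84 to 2.52). The endothelial markers PECAM1 (22 and 57 counts), CDH5 (16 and 67 counts) and VWF (39 and 56 counts) were also higher in shKDM4C. KDR (0 and 2 counts) and TEK (3 and 4 counts) were at or near 0. The part of these markers in the ENG value was not tested. ACVRL1, the endothelial type I receptor gene, had 2 counts in each library.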
